A study of Mus musculus with 6 samples.

Results

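Binding of the long non-coding RNA LncMyoD to DNA was examined at 5 genes, Igf2bp1, Igf2bp2, Igf2bp3, Nras and Myc. The rule that picks them uses gene names and no peak value, but they were chosen with earlier results of these data known. Each was taken with the 50 kb either side of its RefSeq span on mm10. They are 5 of 21887 protein-coding genes, and their windows cover 798 kb. The windows held 34 of the 97115 shared regions on the assembled chromosomes, that is, regions where peaks of both replicate lists overlapped by at least 1 bp.

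The samples were myotubes of C57BL/6 mice, made from primary myoblasts kept for 2 days in DMEM with 2% HS. DNA attached to LncMyoD was pulled down with an odd-numbered pool of biotinylated probes (2 samples) and with an even-numbered pool (2 samples), and input DNA was kept beside them (2 samples). No genotype, agent or age is named in the labels, and all 6 samples share strain and culture. The deposited results were 1 peak list per replicate, and each list carries a name that the odd, even and input samples of its replicate share, so pools and input could not be compared. The labels do not say whether replicates were separate cultures. The lists hold DNA positions and no RNA levels, so the myotube label could not be checked against marker genes, and sequencing depth is unknown.

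LncMyoD is transcribed next to Myod1 during muscle differentiation and is known to bind the protein Igf2bp2. The Igf2bp proteins are RNA-binding proteins that attach to messenger RNAs and affect their stability, transport and translation. Nras, a small GTPase that passes growth signals to the MAP kinase cascade, and Myc, a transcription factor of cell growth and proliferation, are among the products whose messenger RNAs Igf2bp proteins bind. That link runs through RNA and protein, whereas the values below concern DNA at the genes themselves.

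The 5 windows held 52 peaks of replicate 1 and 55 of replicate 2. Of the peaks of replicate 1 in these windows, 35 had a partner in the other list, which is 67.3% (exact 95% binomial interval 52.9 to 79.7%, counting error only), against 67.2% of its 157214 peaks genome-wide. Of the peaks of replicate 2 in these windows, 35 had a partner, which is 63.6% (interval 49.6 to 76.2%), against 57.8% of its 179630 peaks. The intervals treat peaks as independent, although the peaks lie in only 5 windows and the partnered peaks of both lists form the same regions. They are therefore no test of the windows against the whole lists. Fold enrichment is the authors' ratio at the summit of a peak over the background their peak caller estimated. It is used here within a list, except where the higher fold of a region is divided by the lower. Where a pair of folds, percentiles or summit distances is given for a region, the first is from replicate 1 and the second from replicate 2. The median fold in the windows was 9.42 in replicate 1 and 7.72 in replicate 2, against 8.08 and 8.11 over the whole lists.

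All 5 genes had a shared region in the window, and 97.7% of protein-coding genes did, so that presence within 50 kb did not set the 5 genes apart. Every window also held peaks of each list taken alone, as did 99% of protein-coding genes for replicate 1 and 99.2% for replicate 2. Within the gene span itself a shared region was present at 4 of the 5 genes, against 56.4% of protein-coding genes. The same 4 genes, all but Nras, had a shared region within 5 kb of the span, against 70.3%. All 5 had a region within 25 kb and within 100 kb, against 92.4% and 99.4%. The shares over all genes do not allow for gene length. Among genes of 0.5 to 2 times the length of Igf2bp3, 94.5% had a region in the span. For the lengths of Igf2bp2, Igf2bp1, Nras and Myc these shares were 92.4%, 79.5%, 46.3% and 33.5%. With 5 genes and 1 list per replicate, no test of these shares was made.

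**Figure D1:**
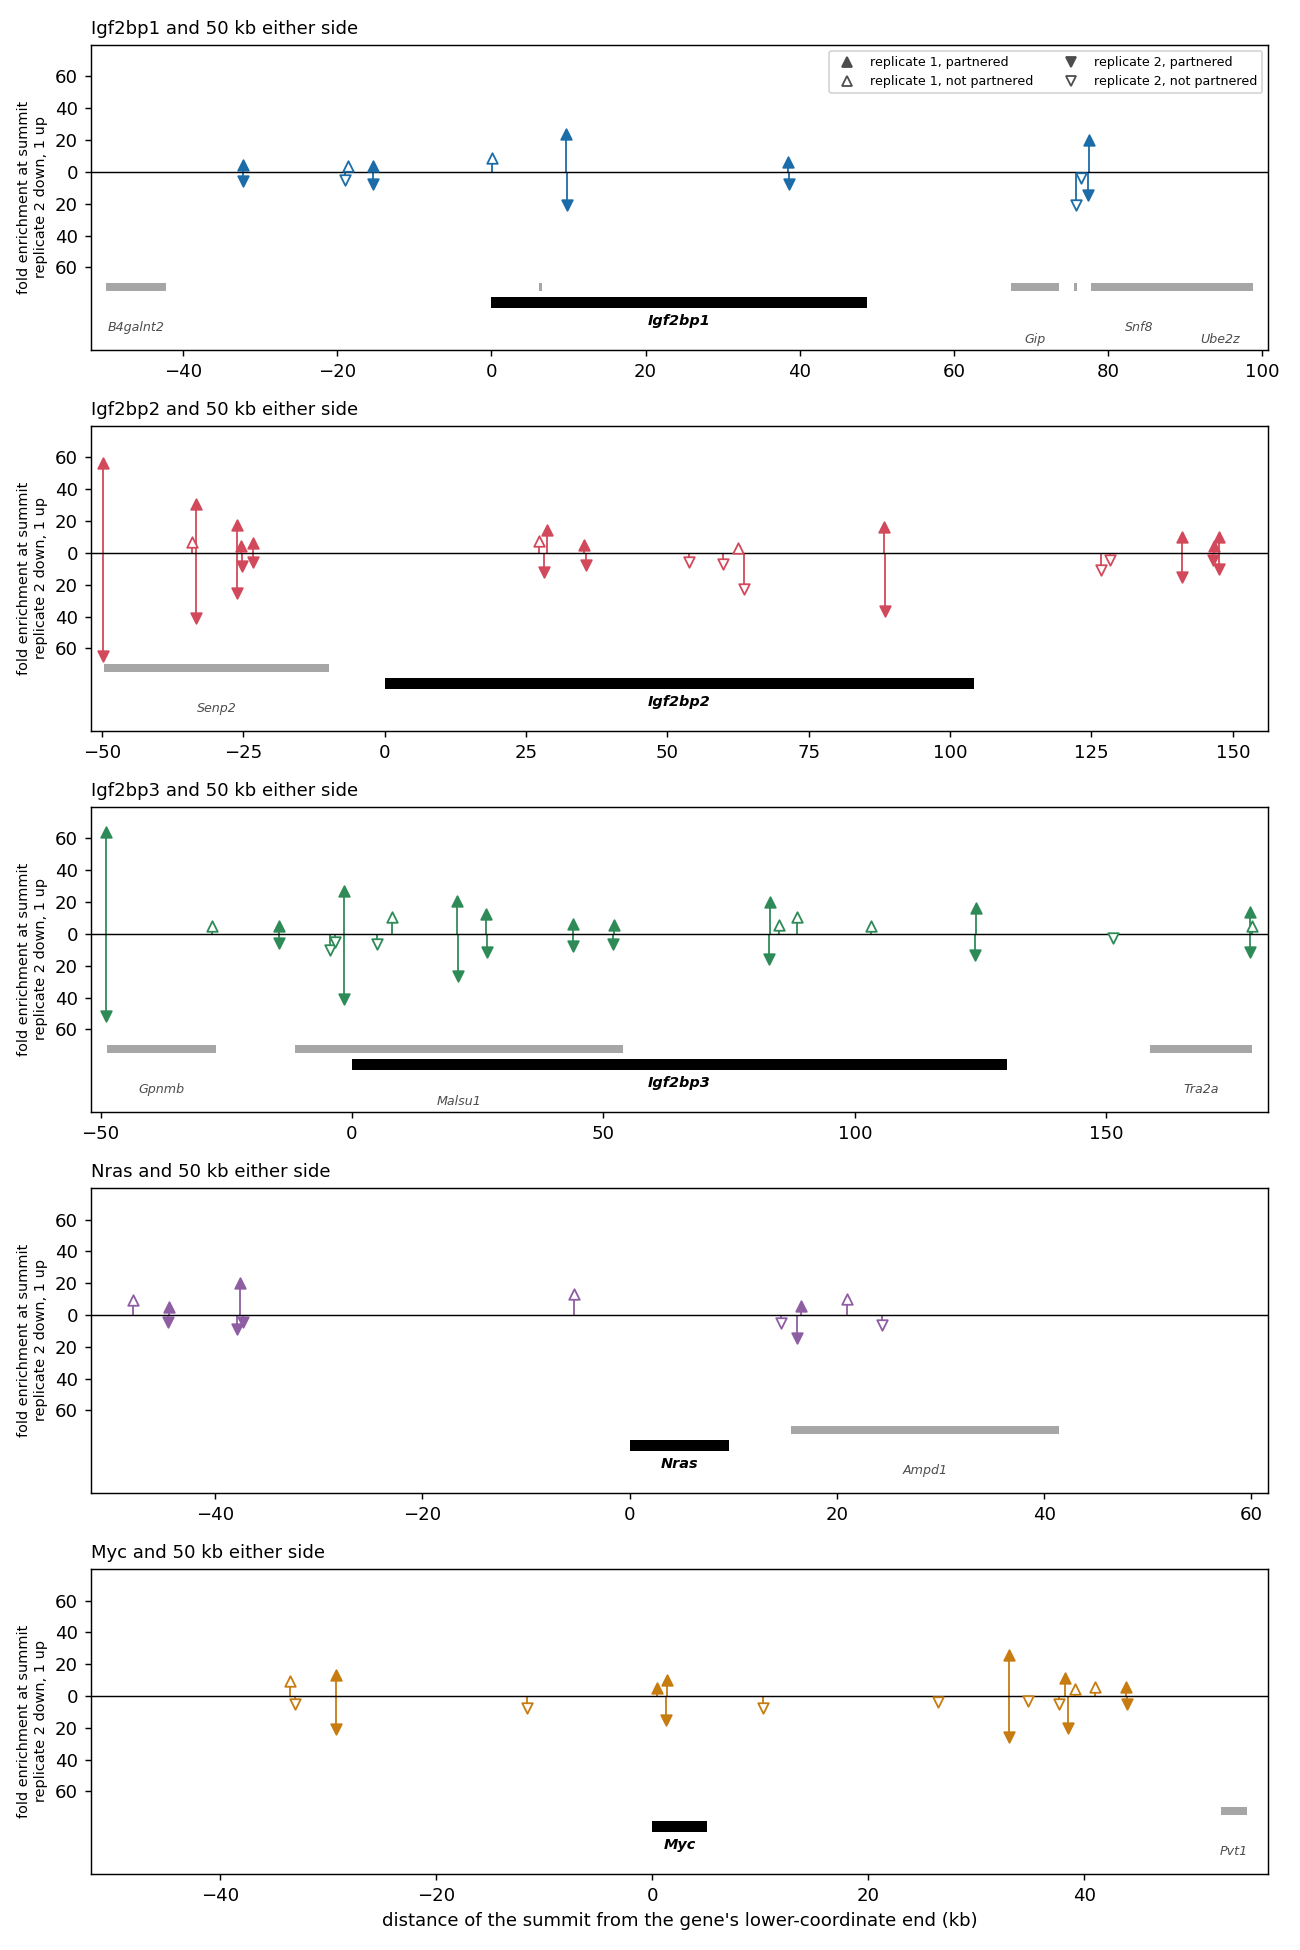
Peaks by distance of their summit from the lower-coordinate end of each gene (kb, horizontal axis), with the authors' fold enrichment upward for replicate 1 and downward for replicate 2. Filled symbols are peaks with a partner in the other list, open symbols have none, the black bar is the named gene and grey bars are neighbouring genes, not all of them drawn; the tallest pairs, at 56.2 and 64.6-fold and at 64.3 and 51.6-fold, stand at the left edges of the Igf2bp2 and Igf2bp3 windows, and the black bar of Nras carries no peak.

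Number per length put the 5 windows near the middle of the genome. Igf2bp2 had 5.38 shared regions per 100 kb of window, the 65.3rd percentile of protein-coding genes. Myc had 4.76 (56.7th percentile), Igf2bp3 4.34 (50.6th), Igf2bp1 3.36 (34.9th) and Nras 2.74 (24.3rd). The median over protein-coding genes was 4.30, with quartiles at 2.77 and 6.18, so 4 of the 5 windows lay between the quartiles and Nras just under the lower quartile. In the surrounding 50 to 250 kb either side, the density was 6 per 100 kb around Igf2bp1, 5.25 around Nras, 5.75 around Igf2bp2, 4.50 around Myc and 4 around Igf2bp3. The windows of Igf2bp1 and Nras were thus sparser than their own surroundings, which rests on 5 and 3 regions in the windows. Those of Igf2bp2, Myc and Igf2bp3, with 11, 5 and 10 regions, lay close to theirs. A region that crossed a window edge was counted in the window, which was the case for 2 regions, at Igf2bp2 and Igf2bp3.

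**Figure D2:**
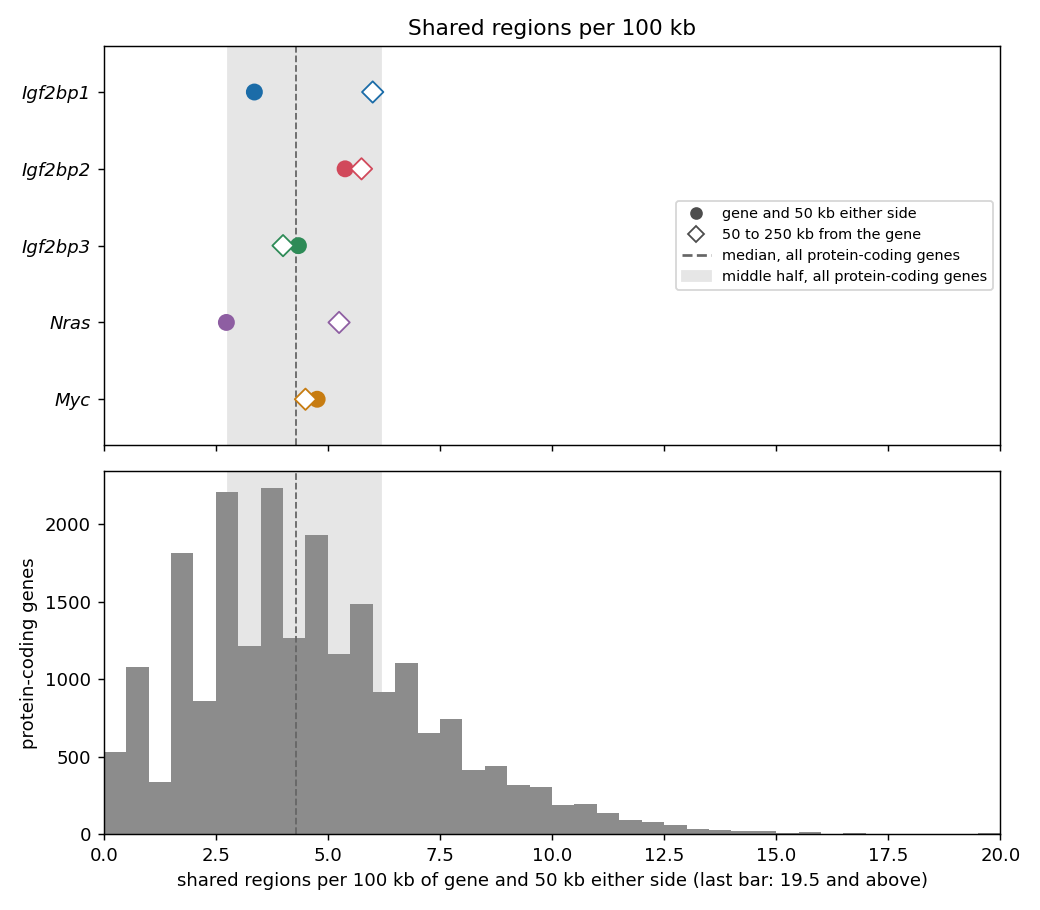
Upper panel, shared regions per 100 kb (horizontal axis) in the window of each gene (filled circles, 2.74 to 5.38) and 50 to 250 kb from the gene (open diamonds, 4 to 6). Lower panel, the number of protein-coding genes at each density of the window; the dashed line is their median, 4.30, and the grey band runs between their quartiles, 2.77 and 6.18.

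The place of a gene's start relative to these regions was followed in promoter sequences. RefSeq promoter windows of 250 bases before to 50 after the transcription start (GRCm38.p6, the assembly behind mm10) were matched for 3 of the 5 genes, Igf2bp2, Igf2bp3 and Nras. None of the 3 was touched by a peak of either list. A shared region overlapped 9.04% of the 32851 promoter windows of that table. The nearest shared region lay 5476 bp from the promoter window of Igf2bp3, 15101 bp from that of Igf2bp2 and 15712 bp from that of Nras. Across all promoter windows inside the 5 gene windows, 2 of 9 overlapped a shared region, 3 of 9 a peak of replicate 1 (9.49% in the table) and 2 of 9 a peak of replicate 2 (11.5%). Those 2 belong to neighbours, Senp2 beside Igf2bp2 and Gpnmb beside Igf2bp3, and they carry the 2 strongest shared regions of the 5 gene windows. The 5 promoters are shown because they are where the strongest regions of these windows lay and where they did not. They are printed 5′ to 3′ on the strand of the gene, with every CANNTG in capitals. CANNTG is the E-box, the core that basic helix-loop-helix factors recognise; MyoD favours the form CAGCTG and Myc with its partner Max the form CACGTG.
The promoter windows without a peak are those of Igf2bp2 (chr16:22163250-22163549, minus strand), Igf2bp3 (chr6:49214905-49215204, minus strand) and Nras (chr3:103058035-103058334, plus strand).
Igf2bp2: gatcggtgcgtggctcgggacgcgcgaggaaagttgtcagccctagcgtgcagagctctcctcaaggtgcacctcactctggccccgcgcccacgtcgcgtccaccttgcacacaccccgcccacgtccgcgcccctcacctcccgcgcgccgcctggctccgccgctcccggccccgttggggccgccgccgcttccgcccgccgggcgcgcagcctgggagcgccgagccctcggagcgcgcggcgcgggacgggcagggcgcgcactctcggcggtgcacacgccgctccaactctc
Igf2bp3: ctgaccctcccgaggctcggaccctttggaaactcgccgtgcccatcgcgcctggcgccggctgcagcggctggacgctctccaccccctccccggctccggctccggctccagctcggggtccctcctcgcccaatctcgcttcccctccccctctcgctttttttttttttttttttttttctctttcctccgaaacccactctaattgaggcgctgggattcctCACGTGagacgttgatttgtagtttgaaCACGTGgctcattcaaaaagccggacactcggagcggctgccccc
Nras: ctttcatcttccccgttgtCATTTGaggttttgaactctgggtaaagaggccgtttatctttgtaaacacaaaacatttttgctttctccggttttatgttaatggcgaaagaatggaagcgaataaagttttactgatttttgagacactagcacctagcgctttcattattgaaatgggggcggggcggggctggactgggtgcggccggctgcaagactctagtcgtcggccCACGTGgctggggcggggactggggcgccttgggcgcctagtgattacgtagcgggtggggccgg
The promoter windows under a shared region are those of Senp2 (chr16:22009234-22009533, plus strand) and Gpnmb (chr6:49036268-49036567, plus strand).
Senp2: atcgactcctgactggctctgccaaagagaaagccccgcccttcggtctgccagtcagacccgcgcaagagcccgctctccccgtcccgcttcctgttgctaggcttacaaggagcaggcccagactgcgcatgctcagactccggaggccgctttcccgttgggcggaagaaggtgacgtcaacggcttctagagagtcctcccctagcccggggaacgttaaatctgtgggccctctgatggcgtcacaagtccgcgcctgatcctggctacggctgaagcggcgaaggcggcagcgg
Gpnmb: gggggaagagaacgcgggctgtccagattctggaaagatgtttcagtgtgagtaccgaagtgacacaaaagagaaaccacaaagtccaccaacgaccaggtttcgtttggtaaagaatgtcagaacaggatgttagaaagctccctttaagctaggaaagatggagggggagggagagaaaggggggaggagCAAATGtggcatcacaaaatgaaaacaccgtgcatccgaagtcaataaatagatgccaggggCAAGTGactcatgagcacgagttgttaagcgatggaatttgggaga

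The letters of these promoters differed among themselves. The Igf2bp3 promoter held CACGTG at 2 places, and the Nras promoter held CACGTG and CATTTG at 1 place each. The Gpnmb promoter held CAAATG and CAAGTG, and those of Igf2bp2 and Senp2 held no CANNTG. Among the 32851 promoter windows, 72.3% held CANNTG, 7.15% CACGTG and 16.3% CAGCTG. The pattern CANNTG is its own reverse complement, so 1 search covers both strands, and CACGTG and CAGCTG are forms of it and overlap it wholly. The promoter of Igf2bp2 was the richest in G and C, with 76.7% of its bases, followed by Senp2 (63.7%), Igf2bp3 (60.3%), Nras (52.3%) and Gpnmb (47.7%). The median of the table was 52.7%. These are 2 promoters under a shared region and 3 without, chosen for their place. That is too few to say whether such promoters differ in CANNTG or base composition, which was not tested.

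Igf2bp2, the family member known to bind LncMyoD, spans 104291 bp on chromosome 16 (22059009 to 22163299). Its window held 14 peaks of replicate 1 and 16 of replicate 2, which formed 11 shared regions. Of these, 3 lay inside the gene, 5 to the lower-coordinate side and 3 to the higher. The strongest inside the gene, from 22146181 to 22148149, had folds of 16.5 in replicate 1 and 36.3 in replicate 2 and ended 15150 bp before the end of the gene where transcription starts. When all 97115 regions were ordered by the percentile of −log10 q of their best peak in each list, averaged over the lists, it took place 17859. A region from 22086562 to 22087973 had folds of 14.3 and 12.0, and the weakest, from 22094220 to 22094754, reached 5.14 and 7.48. Inside the gene, replicate 2 showed a further peak of 22.9-fold, from 22121933 to 22122735, whose nearest neighbour in replicate 1 lay 400 bp away at 3.31-fold without touching it. Of protein-coding genes between 0.5 and 2 times as long as Igf2bp2, 92.4% held a shared region in the span and 61.9% held at least 3.

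The flank of Igf2bp2 toward lower coordinates was denser than the gene. The flanks held 8 shared regions per 100 kb, against 2.88 per 100 kb in the gene. All 5 regions on the lower side overlapped Senp2, which encodes a protease that removes SUMO from proteins. The strongest ran from 22006956 to 22010705, over the Senp2 start, with folds of 56.2 and 64.6, place 722 and a width of 3750 bp. Its summits lay 268 and 217 bp from the start of Senp2. It crossed the edge of the window, with the summits 207 and 258 bp inside it, and the next region outward, 2789 bp beyond the edge, had folds of 4.41 and 8.65. Within Senp2, a region from 22025343 to 22026474 had folds of 30.9 and 40.8 and place 7850, and a region from 22032654 to 22033110 had folds of 17.3 and 25.3 with summits 1 bp apart. On the higher-coordinate side, 3 regions that overlapped no annotated gene had folds from 4.41 to 9.92 in replicate 1 and from 4.32 to 14.999 in replicate 2.

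Igf2bp3, the third member of the family, is the longest of the 5 genes, with 130252 bp on chromosome 6 (49085218 to 49215469). Its window held 16 peaks of replicate 1 and 14 of replicate 2, and 10 shared regions. Inside the gene lay 6, the most among the 5 genes, and 33.4% of protein-coding genes of 0.5 to 2 times its length held at least as many. A shared region in the span was present at 94.5% of genes of that length. The strongest inside the gene, from 49105573 to 49106796, had folds of 20.9 and 26.3 and place 20520. It was followed by regions from 49167966 to 49168939 (19.9 and 15.8-fold) and from 49208958 to 49209429 (16.2 and 13.0-fold). Among the other 3, folds ran from 5.88 to 12.6 (replicate 1) and from 6.61 to 11.1 (replicate 2). The higher fold of each of the 6 was less than 1.5 times the lower.

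Most of these regions are not tied to Igf2bp3 alone. The annotated span of Malsu1, the gene of a mitochondrial ribosome assembly factor, overlaps Igf2bp3 over 53927 bp, and 4 of the 6 regions lay in both genes. The region at 49208958 also overlapped the non-coding RNA gene D030074P21Rik, which leaves the region at 49167966 in Igf2bp3 alone. A region 721 bp outside the lower-coordinate end of Igf2bp3, from 49082808 to 49084497, lay inside Malsu1 and had folds of 27.2 and 40.8, place 10674 and summits 5 bp apart. The strongest region of the window (49034335 to 49037065, 64.3 and 51.6-fold, place 2173) lay over the start of Gpnmb, which encodes a membrane glycoprotein, 48153 bp from Igf2bp3. Its summits were 285 and 310 bp from the start of Gpnmb, and 1015 and 990 bp inside the window edge. At the opposite edge a region over Tra2a, the gene of a splicing regulator, had folds of 14.0 and 11.1, and the first region beyond that edge had folds of 6.61 and 4.28.

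Igf2bp1 spans 48782 bp on chromosome 11 (95957163 to 96005944), and its window held 7 peaks of replicate 1, 8 of replicate 2 and 5 shared regions. Inside the gene lay 2, as at the median gene of 0.5 to 2 times its length. Among genes of that length 79.5% had a region in the span and 54.1% had at least 2. The region from 95965543 to 95967746 had folds of 23.9 and 20.7 and place 22406, was 2204 bp wide, and began 8380 bp from the lower-coordinate end of the gene. The other, from 95995489 to 95996207, had folds of 6.17 and 7.70. Replicate 1 alone had a peak over the lower-coordinate end of the gene, from 95957077 to 95957409, at 8.81-fold. Mir3063, a microRNA gene inside Igf2bp1, lay 2160 bp from the nearest shared region.

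The flanks of Igf2bp1 held 3 shared regions. The strongest, from 96033906 to 96034976, overlapped an end of Snf8, the gene of an ESCRT-II subunit of endosomal sorting, with folds of 20.2 and 14.5. Beside it, replicate 2 had a peak of 21.0-fold over the snoRNA gene Gm24949 that was 1215 bp from the nearest peak of replicate 1. Both regions on the lower-coordinate side were weak, with folds of 4.62 and 5.44 and of 3.46 and 7.72. No shared region overlapped the incretin gene Gip, the ubiquitin-conjugating enzyme gene Ube2z or the glycosyltransferase gene B4galnt2. B4galnt2 also carries Igf2bp1 as a synonym in the gene table and was kept apart from it by gene identifier.

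The best regions inside the spans of the family members were of similar strength. By mean percentile of −log10 q, the best region inside the gene stood at 86.9 for Igf2bp2 (79.3 in replicate 1 and 94.5 in replicate 2). It stood at 85.0 for Igf2bp3 (82.0 and 88.1) and at 83.7 for Igf2bp1 (85.2 and 82.1). The order of the 3 family members was reversed between the lists, so it is not resolved. With 1 value per list there is no measure of error. Myc followed at 66.5 (60.2 and 72.7), below the family in both lists, and Nras had no region in the gene. These are the best of 3 regions in Igf2bp2, 6 in Igf2bp3, 2 in Igf2bp1 and 1 in Myc, a far shorter gene. The comparison does not allow for that number. The weakest regions inside the 3 family genes, at 35.0, 34.3 and 43.4 in the same order, stood below the region of Myc. Over the whole window, the best region of Igf2bp2 was at the 94.8th percentile of protein-coding genes and that of Igf2bp3 at the 86.6th, through the regions over Senp2 and Gpnmb. The best regions of Myc, Igf2bp1 and Nras were at the 38.5th, 30.0th and 11.9th percentiles.

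Myc spans 5021 bp on chromosome 15 (61985341 to 61990361), and its window held 9 peaks of replicate 1, 11 of replicate 2 and 5 shared regions. The region inside the gene, from 61985689 to 61987483, began 348 bp from the lower-coordinate end and covered 35.7% of the span. Replicate 1 had a pair of peaks there, of 5.14-fold (61985689 to 61985910) and 9.95-fold (61986536 to 61987483). Replicate 2 had a single peak of 14.8-fold (61985891 to 61987408) that joined them. The region took place 44107 of 97115, in the middle of all shared regions. A shared region in the span was present at 33.5% of protein-coding genes of 0.5 to 2 times the length of Myc.

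The flanks of Myc are poor in genes and held the strongest regions of its window. A region from 62018073 to 62019031, 27712 bp beyond the higher-coordinate end of Myc, had folds of 25.7 and 25.6, place 17330 and summits 11 bp apart. Farther out, a region from 62023439 to 62023981 had folds of 11.6 and 20.4, and a region from 62029138 to 62029365 had folds of 5.62 and 4.77. On the other side, 28952 bp from the gene, a region from 61955905 to 61956389 had folds of 13.3 and 21.0. None of these 4 overlapped an annotated gene. Pvt1, a non-coding RNA gene whose nearer end lies 47625 bp from Myc, had no shared region in the part that falls in the window, although its whole span held 10, the best at 36.4 and 38.9-fold. Replicate 2 had 6 peaks without a partner in this window, from 3.40 to 7.72-fold, and replicate 1 had 3, from 4.41 to 9.28-fold.

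Nras spans 9630 bp on chromosome 3 (103058285 to 103067914) and was the only gene of the 5 without a peak of either list over its span. A peak in the span was present at 63.9% of protein-coding genes in replicate 1 and at 67.9% in replicate 2. Among genes of 0.5 to 2 times the length of Nras, 46.3% had a shared region in the span, so that genes of this size more often lacked a region than held one. On the higher-coordinate side, the nearest peak of replicate 2 ran from 103072480 to 103072994 at 5.25-fold, without a partner in replicate 1.

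The window of Nras held 6 peaks of each list and 3 shared regions. A region from 103074046 to 103074962 lay inside Ampd1, the gene of the AMP deaminase of skeletal muscle, with folds of 5.51 and 14.5. The higher was 2.63 times the lower, against at most 2.23 times at the 31 regions of the other windows. This ratio crosses the lists, whose depths are unknown, and was not set beside that of all shared regions. Another region, from 103013450 to 103013998, had folds of 4.77 and 4.65 and overlapped no gene. With a reciprocal overlap of at least 50% of both peaks none of the 3 remained, and with summits within 200 bp 1 did. No other window lost all its regions under the reciprocal overlap, which left 4 of 5 at Igf2bp1 and at Myc, 8 of 11 at Igf2bp2 and 9 of 10 at Igf2bp3. The same rule was not set beside the windows of all protein-coding genes. With 3 regions at Nras, its loss is therefore not shown to be unusual.

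**Figure D3:**
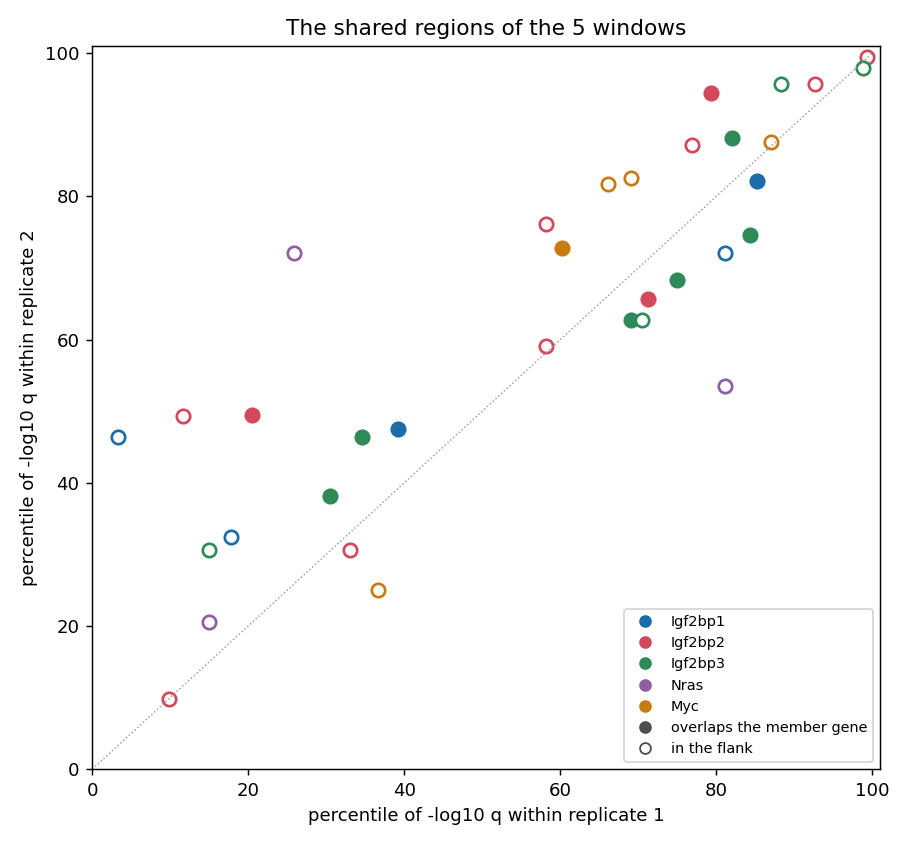
Strength of the 34 shared regions, as the percentile of −log10 q of the best peak within the list of replicate 1 (horizontal axis) and of replicate 2 (vertical axis), both from 0 to 100. Filled circles overlap the named gene, open circles lie in its flank, and the dotted line marks equal percentiles. Regions over Senp2 and Gpnmb stand at the upper right. The Nras region with folds of 5.51 and 14.5 lies far above the line. So do an Igf2bp1 region (3.46 and 7.72-fold) and an Igf2bp2 region over Senp2 (4.31 and 8.11-fold).

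Taken as a set, the 34 regions were near the middle of all shared regions in strength. The median of their mean percentile was 66.8, against 62.7 over all shared regions. Among the strongest 10% of all shared regions were 3 of the 34 (8.82%), those at 22006956 and 22025343 over Senp2 and at 49034335 over Gpnmb, and none of these lay in a member of the set. The weakest 10% also held 3. Their median width was 643 bp, against 749 bp over all shared regions, and ranged from 228 to 3750 bp. Summits of the lists lay a median of 99 bp apart in the 34 regions and 74 bp apart in all. The percentiles of both lists were related across the 34 regions with a Spearman rho of 0.85, against 0.77 across all shared regions. These points share libraries and local context and are given as a description.

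By annotation, 12 of the 34 regions overlapped one of the 5 genes. Of these, 7 overlapped that gene alone and 5 overlapped a second gene as well. A further 11 overlapped another gene only, and 11 overlapped none. The gene table gives starts and ends without exons, so intronic and exonic positions were not told apart. In 32 of the 34 regions a single peak of each list met a single peak of the other.

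Peaks without a partner were weaker, as they were genome-wide. In replicate 1, the 17 unpartnered peaks of the windows had a median fold of 6.61, against 11.6 for the 35 partnered, and in replicate 2 the 20 unpartnered peaks had 5.56, against 12.0. Over the whole lists these medians were 5.73 against 10.4 and 5.87 against 11.4. The opposite list had a peak at most 1 kb away for 7 of the 17 and for 7 of the 20, with a smallest gap of 68 bp. The 2 highest unpartnered folds, 22.9 in Igf2bp2 and 21.0 beside Snf8, were both from replicate 2.

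Genes that act with the 5 were counted in the same way. Of 16 partners and known targets of the Igf2bp proteins, which include the non-coding RNA gene H19, 11 had a shared region in the span. That is 68.8%, against 56.4% of protein-coding genes. Within 5 kb 14 had a region (87.5%, against 70.3%), and within 50 kb all 16 did, against 97.7%. The strongest were at Hmga2, the gene of an architectural chromatin protein (79.6 and 68.7-fold, inside the gene), Syncrip, the gene of an RNA-binding protein (84.5 and 64.2-fold, 15227 bp away), and Igf2, the gene of the growth factor after which the family is named (66.3 and 60.8-fold, over the gene). Their median density was 4.31 shared regions per 100 kb of window, against 4.30 for protein-coding genes.

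Of 18 genes of the Ras pathway, 13 had a shared region in the span (72.2%, against 56.4% of protein-coding genes). Within 5 kb 14 had a region (77.8%, against 70.3%), and within 50 kb all 18 did, against 97.7%. Among the strongest were those beside Rras2, the gene of a Ras-related GTPase (91.8 and 70.4-fold, 8587 bp away), and in Map2k1, the gene of a kinase of the MAP kinase cascade (82.6 and 56.2-fold). Their median density was 4.63 per 100 kb. Of 13 genes of the Myc and Max network, a list that also counts the non-coding RNA gene Pvt1, 9 had a region in the span (69.2%, against 56.4%). The same number had one within 5 kb (69.2%, against 70.3%). All 13 had one within 50 kb, against 97.7%. The strongest were at Mxd1 (59.8 and 54.98-fold, inside the gene), Mxd4 (53.3 and 52.9-fold, 13097 bp away) and Mxi1 (59.5 and 46.3-fold, 47745 bp away), which encode Max partners that oppose Myc. Their median density was 4.77 per 100 kb. No listed gene lacked a region within 50 kb, the 3 lists were not tested against other genes, and the span shares do not allow for gene length.

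Likeness of other genes to each of the 5 was measured as the distance over 4 genome percentiles, those of the peaks of each list and of shared regions per 100 kb of window and that of the best shared region. The nearest protein-coding gene was Cox7a2 for Igf2bp2 (2.63 percentile points), Ccdc102a for Igf2bp3 (0.907), Efna5 for Igf2bp1 (3.24), Gm13030 for Myc (3.12) and 1700129C05Rik for Nras (0.709). Within 10 points lay from 22 genes for Myc to 91 for Igf2bp1, of 21887. The measure is per length: the window of Efna5 held 13 shared regions and that of Igf2bp1 held 5.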

How the data were processed

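ChIRP-seq libraries of 6 samples were grouped by their titles. The authors deposited 2 peak lists in narrowPeak layout, with no header line. The submitters' processing notes name the aligner Bowtie2 (2.3.2), Picard (2.9.2), the peak caller MACS2 (2.1.1) and mm10. Parameters, and which libraries served as treatment and control, are not stated there. Each peak has a fold, the authors' deposited ratio of its summit to the caller's background, and a q that the authors deposited on a −log10 scale, with a minimum of 1.35 (replicate 1) and 1.32 (replicate 2). The deposited score of each peak was not used. The kit inserts adapters by tagmentation, which favours some sequences, and this could not be corrected from peak lists.

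Peaks sharing at least 1 bp were partners, and a shared region is the union of overlapping peaks from both lists. A peak or region belonged to a gene if it touched the span or 50 kb either side. Genes were matched by symbol in a RefSeq table of GRCm38.p6 on 21 chromosomes, and promoter sequences are RefSeq's on that assembly.

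The genes and lists were chosen with earlier results of these data known. Named genes were the 5 members, the annotated genes in their windows, the 3 genes of each list with the strongest shared region and the most alike gene for each member. A few of these are not reported here. With 1 list per replicate there was no test, and values are given beside all protein-coding genes. Alternatives were other windows, a minimum of 5 for −log10 q or for fold, the 30000 strongest peaks, a reciprocal overlap of 50%, summits within 200 bp and either list alone. The overlap and counting code was tested on simulated data. Work was done in Python 3.11.15 with numpy (2.4.6), pandas (2.3.3) and scipy (1.17.1), and plots in matplotlib (3.10.9).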

Additional observations from a re-analysis of the deposited data

How the results depend on the processing

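No paired analysis was possible because each replicate is a single deposited list and no result comes from a test. With either list alone, peaks were present in the windows of all 5 genes. Thresholds of 5 on −log10 q or on fold, a reciprocal overlap of 50% and summits within 200 bp left every total over the 5 windows within 1.5 times its value, although they removed regions of single genes, as given for Nras. The totals moved with the window, by its construction. Peaks of replicate 1 numbered 20 in the spans, 21 within 5 kb, 28 within 25 kb and 86 within 100 kb, against 52 within 50 kb. Peaks of replicate 2 numbered 16, 20, 33 and 94, against 55. Shared regions numbered 12, 13, 18 and 56, against 34. A shared region in the span alone was present at 12347 protein-coding genes, against 21379 within 50 kb. Among the 30000 strongest peaks of each list, the windows held 10 peaks of replicate 1, 9 of replicate 2 and 6 shared regions. These lay at 3 of the 5 genes (3 at Igf2bp3, 2 at Igf2bp2, 1 at Myc and 0 at Igf2bp1 and Nras). The share of all protein-coding genes at this setting was not counted, so the 3 of 5 has no background beside it. Depth is unknown, so a gene without a peak may hold signal below the caller's threshold. Peaks of input DNA alone, or of a control probe set, were not analysed here.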
